A study of Mus musculus with 95 samples.

Results

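The data described here are the paired libraries of 26 mice, 13 dependent and 13 non-dependent, that show for each gene how its level on astrocyte ribosomes compares with its level in the whole tissue. Translating ribosome affinity purification (TRAP) of nucleus accumbens punches gave an IP library, the RNA on tagged astrocyte ribosomes, and an aliquot set aside first gave an input library, the RNA of all cells. All mice carried 1 transgene, Tg(Aldh1l1-EGFP/Rpl10a)JD130Htz, in which regulatory sequence of the astrocyte gene Aldh1l1 drives a fluorescent ribosomal protein, on a mixed B6;FVB background. Dependent mice had been through CIE-2BC, chronic intermittent ethanol combined with 2-bottle choice drinking, with 5 rounds of CIE. Non-dependent mice were the 2BC controls, which drank but had no CIE. Ages are not given in the sources used here. Mice of batches I, J and K, the first letter of a mouse's code, entered where both fractions were present, which took 52 of the 95 libraries of the series and 26 of its 49 mice. Batch I held 7 dependent and 7 non-dependent mice, batch J 4 and 3, and batch K 2 and 3. Of the dependent mice 6 were female and 7 male, and of the non-dependent mice 8 and 5. Another 2 non-dependent males of batch I with an input library alone were left out.

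The quantity compared was the log2 ratio of IP to input within a mouse. The shift is the difference of this ratio between dependent and non-dependent mice, adjusted for batch, as fitted to the counts of both fractions in 1 model. Ratios printed for single mice were instead computed from log2 CPM, the counts of a gene scaled to a fixed library size, so their differences need not equal the shift. Shifts are given on the log2 scale with a standard error (SE) and a Benjamini-Hochberg adjusted p from edgeR's quasi-likelihood test, and a gene was called, or is said to have risen or fallen, at an adjusted p of 0.05 or less. A positive shift means that a transcript was higher in IP relative to the tissue around it in dependent mice. A transcript that changes equally in both fractions has no shift, however large the change is. Since ribosome-bound RNA is read, a shift can come from more RNA in astrocytes, from more of it on ribosomes or from a change in other cells, and in bulk fractions these cannot be told apart. As background, the endoplasmic reticulum (ER) folds secreted and membrane proteins with the help of chaperones, and cells make more of these when unfolded proteins accumulate. Interferons make cells express antiviral proteins and the machinery that cuts proteins into peptides and presents them on MHC molecules. Astrocytes are known to take on such inflammatory states in injured or inflamed brain.

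Each IP library held 14314236 to 27146790 counts and each input library 12816752 to 22626988, and the ranges of both treatments overlapped. Mitochondrially encoded transcripts took 0.49% to 1.28% of the IP counts of dependent and 0.501% to 1.52% of those of non-dependent mice. The purification was checked on 22 astrocyte markers, whose mean log2 ratio was 2.94 ± 0.15 (SD) in 13 dependent and 3.0004 ± 0.14 in 13 non-dependent mice. These differed by -0.06 with batch adjusted (permutation test within batches, two-sided, p = 0.124). The tag's own gene Rpl10a had a shift of 0.03 ± 0.08 (SE, adjusted p = 0.966), Aldh1l1 of -0.15 ± 0.12 (adjusted p = 0.834) and the astrocyte glutamate transporter gene Slc1a3 of -0.05 ± 0.07 (adjusted p = 0.898).

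Other cell types left traces in the ratio. The mean log2 ratio of 15 pan-neuronal markers was -1.34 ± 0.14 in dependent and -1.22 ± 0.11 in non-dependent mice, a difference of -0.12 (permutation test within batches, p = 0.0319). That difference was -0.003 in batch I alone (exact permutation test, p = 0.97) and -0.26 in batches J and K (exact, p = 0.00857). Of 18 microglia markers 15 had a shift above 0 and none passed the test (median 0.23), where 9114 of all 18444 tested genes were above 0 and 0.103% passed. Their summed level in IP was 278 to 1340 CPM (median 384) in dependent and 278 to 433 CPM (median 352) in non-dependent mice, and in input 528 to 1840 and 556 to 1030 CPM. Dependent mice J05, I02, I11 and I05 had the highest microglia ratios, -0.23, -0.33, -0.61 and -0.67, and all other mice were at -0.78 or below. None of the 18 markers was at 0 in every library of a group. These 4 mice also stood apart in immune genes: H2-D1, a classical MHC class I heavy chain, reached 539 to 1329 CPM in their IP, against 89.1 to 294 CPM in the other 9 dependent and 41.9 to 165 CPM in the 13 non-dependent mice. Monocyte and macrophage markers summed to 6.83 to 62.7 CPM in the IP of dependent and 7.5 to 25.4 CPM in that of non-dependent mice, and T cell markers to 16.1 to 41.4 and 25.4 to 51.3 CPM, with 3 of 10 T cell markers at 0 in every non-dependent IP library. The values per mouse show that microglia ratios spread more among dependent mice, while those of astrocyte markers overlap.

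**Figure D1:**
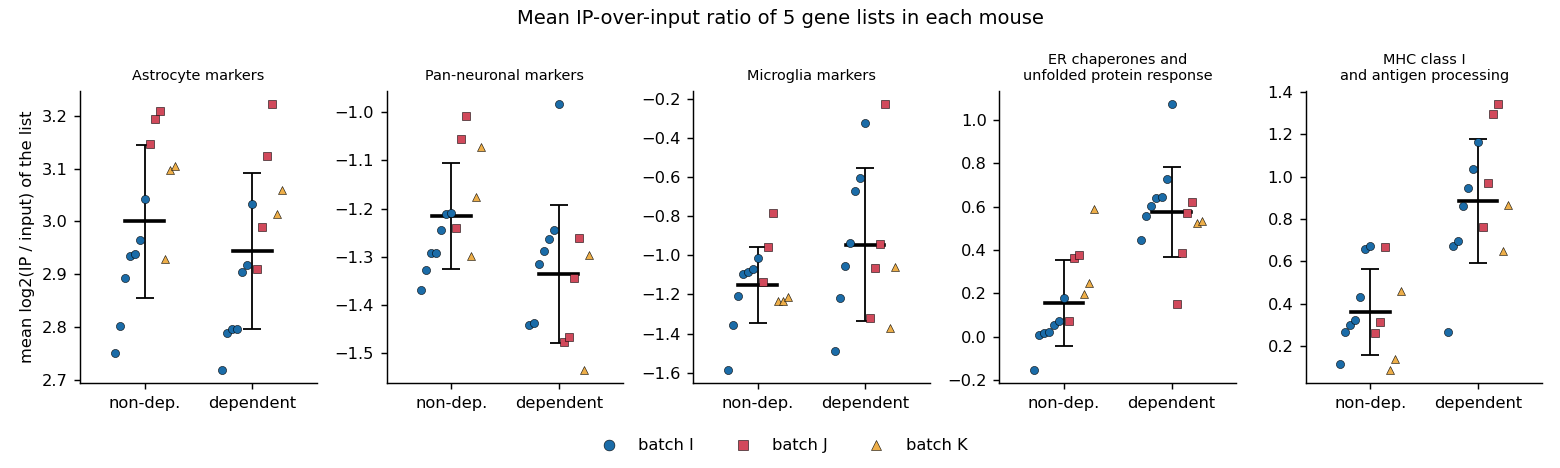
Mean log2 IP-over-input ratio (y axis) of 5 gene lists in each of 26 mice, by treatment (x axis) and batch (symbol and colour), with the mean (bar) and SD (whiskers) of each group of 13. Astrocyte markers overlap between the groups, microglia markers reach -0.23 in dependent against -0.78 in non-dependent mice, and for the MHC class I list 11 of 13 dependent mice lie above the highest non-dependent mouse.

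Of 18444 genes tested, 19 had a shift at an adjusted p of 0.05 or less (0.103% of those tested): 17 were higher (0.0922%) and 2 lower (0.0108%) in dependent mice, and 1465 had an unadjusted p under 0.05. The median shift of all tested genes was -0.003. The count depends on the tool and the mice: limma on the per-mouse ratios called 3 (Calr, Xaf1 and Serping1), with adjusted p from 0.0876 to 0.412 for the other 16, and DESeq2 called 50 (30 higher, 20 lower; 16 shared). Without the 4 dependent mice of high microglia ratio, an alternative chosen after seeing the data, 7 were called (6 higher), 6 of them among the 19: Calr, Xaf1, Cebpb, Ddit4l, Hspa5 and Bambi. With all mice the higher genes were chiefly ER chaperones and folding helpers, and genes of the interferon response, antigen processing and complement. Of the 17, 15 could be tested in IP alone and all 15 were higher there, while 16 could be tested in input alone and 1, Cebpb, was higher there. Over the same mice 239 of 16502 genes differed in IP (1.45%; 183 higher or 1.11%, 56 lower or 0.339%) and 17 of 16849 in input (0.101%; 13 higher or 0.0772%, 4 lower or 0.0237%). Without those 4 mice 89 genes were called in IP and 0 in input (edgeR, 1000 at an unadjusted p under 0.05). Between the groups the ratios overlapped for all 19 genes. All 19 differences had the same sign in batches I and J, and 16 also had it in batch K, the exceptions being Pdia3, H2-T23 and Oasl2.

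ER folding genes made up the first group, in which the difference lay in the IP. Of 23 genes of ER chaperones and the unfolded protein response, all were tested, 6 rose relative to input (Calr, Pdia3, Manf, Dnajb11, Hspa5 and Sdf2l1) and none fell, and 22 had a shift above 0. Of all 18444 tested genes 0.0922% rose relative to input and 9114 had a shift above 0. The median shift of the list was 0.38, against -0.003 for all genes. In IP alone 12 of 23 rose (median difference 0.46), and in input none passed (median 0.04). Over all genes 1.11% rose in IP and 0.0772% in input, so none of 23 in input is near the overall share. Without the 4 mice of high microglia ratio 2 of the 23 stayed called (Calr and Hspa5), 22 had a shift above 0 and the median was 0.31, with 7 of 23 higher in IP.

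Calr (ENSMUSG00000003814, chr8:84841850-84846934, GRCm38) encodes calreticulin, a calcium-binding chaperone of glycoproteins that also helps load MHC class I molecules. Its IP level ran from 201 to 688 CPM (median 487) in dependent and from 141 to 333 CPM (median 202) in non-dependent mice. In input it ran from 117 to 333 CPM (median 214) in dependent and from 112 to 317 CPM (median 209) in non-dependent mice, so the input ranges nearly coincided. The log2 ratio ran from 0.65 to 1.19 (median 1.02) in dependent and from -0.50 to 1.15 (median -0.04) in non-dependent mice, with 2 dependent mice above the highest non-dependent one. The shift was 0.83 ± 0.12 (SE, 1.78-fold, adjusted p = 0.000451), from a difference of 0.96 ± 0.15 in IP and 0.16 ± 0.08 in input. The non-dependent mice of batch I were the low ones: their mean ratio was -0.25, against 0.58 in batch J and 0.87 in batch K, while the dependent means were 1.03, 0.86 and 1.03.

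Hspa5 (ENSMUSG00000026864, chr2:34771970-34777547) encodes BiP, the main Hsp70 chaperone of the ER and the sensor partner of the unfolded protein response. Its IP level ran from 219.9 to 933 CPM (median 339) in dependent and from 171 to 395 CPM (median 229.8) in non-dependent mice, and its input level from 152 to 355 CPM (median 258) in dependent and from 152 to 583 CPM (median 241) in non-dependent mice. The ratio ran from -0.22 to 1.39 (median 0.50) in dependent and from -0.56 to 0.59 (median -0.12) in non-dependent mice, and the groups overlapped with 4 dependent mice above all non-dependent ones. Its shift was 0.61 ± 0.12 (adjusted p = 0.0193), with a difference of 0.66 in IP and 0.005 in input. The call was lost without mouse I06 or I09 (adjusted p up to 0.0515) and with the microglia ratio as a term (0.59, adjusted p = 0.0758).

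The upstream sequences of Calr and Hspa5 are shown because they hold the only motif of the ER stress response that was searched for. That motif was rare among all promoters. Each run is the 250 bases before the RefSeq start of the gene (GRCm38.p6), 5′ to 3′ on the gene's strand: chr8:84846932-84847181 on the minus strand and chr2:34771840-34772089 on the plus strand. Capitals mark the ER stress response element (CCAAT and CCACG, 9 bases apart) on either strand, and in Calr also an antioxidant response element TGACNNNGC that lies further upstream and does not overlap it.
Calr: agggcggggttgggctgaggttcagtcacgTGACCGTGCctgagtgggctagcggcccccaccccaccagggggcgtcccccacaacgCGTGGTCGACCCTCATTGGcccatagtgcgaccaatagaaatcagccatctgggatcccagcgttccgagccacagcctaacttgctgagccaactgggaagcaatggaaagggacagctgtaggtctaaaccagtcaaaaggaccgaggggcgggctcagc
Hspa5: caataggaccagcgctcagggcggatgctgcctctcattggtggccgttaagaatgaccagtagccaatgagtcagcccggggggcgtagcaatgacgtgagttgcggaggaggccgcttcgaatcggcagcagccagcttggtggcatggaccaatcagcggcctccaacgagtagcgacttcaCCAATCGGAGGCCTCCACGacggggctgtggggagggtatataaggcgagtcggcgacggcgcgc
The ER stress response element stood in 37 of 32841 promoter windows of this length (0.113%) and in 19 of 15578 windows of tested genes (0.122%). It was in 2 of the 16 called genes that had a promoter in the table, Calr and Hspa5. In Calr it was 162 to 144 bases before the start on the opposite strand, and in Hspa5 65 to 47 bases before it. The gene span printed above for Hspa5 is from another annotation with a start further upstream, so the element lies inside that span. Pdia3, Dnajb11 and Sdf2l1 had no match to it, and Manf had no promoter in the table. The antioxidant element stood in 10.2% of all windows, in 11.6% of those of tested genes and in 5 of the 16 (Calr, Pdia3, Ddit4l, Oasl2 and Itsn1). A match describes letters and not a bound site.

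Pdia3 and Dnajb11 followed the same pattern. Pdia3 (chr2:121413775-121438687) encodes ERp57, a disulfide isomerase that works with calreticulin. Its IP level ran from 181 to 599 CPM (median 398) in dependent and from 144 to 376 CPM (median 244) in non-dependent mice and its input level from 104 to 310.0 CPM (median 186) in dependent and from 110.3 to 315 CPM (median 185) in non-dependent mice. Its shift was 0.62 ± 0.11 (adjusted p = 0.00825), with 0.62 ± 0.13 in IP and -0.004 ± 0.10 in input. Dnajb11 (chr16:22857845-22879634), a co-chaperone of BiP, ran from 54.6 to 151 CPM (median 108) in dependent and from 37.8 to 100.1 CPM (median 79.01) in non-dependent mice in IP. In input Dnajb11 ran from 33.2 to 89.9 CPM (median 66.1) in dependent and from 29.97 to 99.8 CPM (median 67.4) in non-dependent mice. Dnajb11 had a shift of 0.47 ± 0.09 (adjusted p = 0.0182), which missed the threshold without mouse I06 or I11 (adjusted p up to 0.0516). For both genes the dependent and non-dependent ratios overlapped except for 1 dependent mouse above all others.

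Manf (chr9:106838312-106891979), a secreted protein of the stressed ER, had from 127 to 317 CPM (median 197) in dependent and from 75.7 to 180.1 CPM (median 87.9) in non-dependent mice in IP. Its log2 ratio ran from -0.22 to 1.27 (median 0.54) in dependent and from -0.57 to 0.38 (median -0.23) in non-dependent mice, with 8 of 13 dependent mice above the highest non-dependent one. The shift of Manf was 0.67 ± 0.12 (adjusted p = 0.0108). Sdf2l1 (chr16:17130138-17132383), a partner of ER chaperones, had a ratio from -0.68 to 1.41 (median 0.28) in dependent and from -1.44 to 0.68 (median -0.74) in non-dependent mice, with 6 dependent mice above the non-dependent range. Its shift of 1.02 ± 0.21 (adjusted p = 0.0209) missed the threshold when any of 8 mice was left out (I01, I06, I09, I11, I12, I15, I16 or J11; adjusted p up to 0.0614). The call of Sdf2l1 was also lost with the microglia ratio (adjusted p = 0.0917) or the astrocyte marker ratio (0.0638) as a term. It held with the neuron marker ratio as the term (adjusted p = 0.015). Other members came close without passing: Derl3, of ER-associated degradation, had a shift of 1.56 ± 0.34 (adjusted p = 0.063) and the isomerase gene Pdia6 one of 0.54 ± 0.12 (adjusted p = 0.0713). Hyou1 was the 1 member with a shift below 0 (-0.02).

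**Figure D2:**
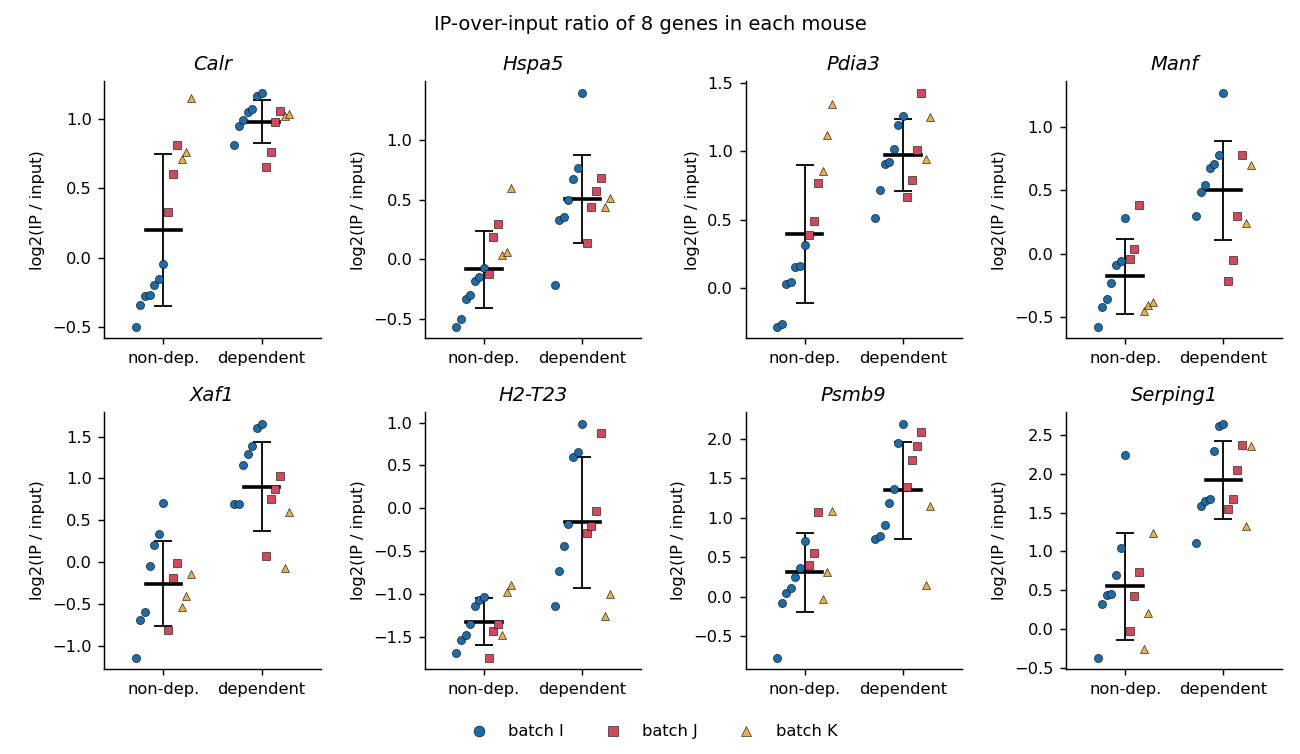
Log2 IP-over-input ratio (y axis) of 8 called genes in each of 26 mice, by treatment (x axis) and batch (symbol and colour), with mean (bar) and SD (whiskers). Groups overlap in every panel. For Calr the non-dependent mice of batch I (mean -0.25) lie below those of batches J and K, while for H2-T23 the 2 dependent mice of batch K lie within the non-dependent range.

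The size of the ER shifts differed between batches, a difference that was not tested. In batches I, J and K the ratio difference was 1.29, 0.28 and 0.15 for Calr, 0.84, 0.34 and 0.25 for Hspa5 and 0.91, 0.43 and -0.01 for Pdia3. It was 0.88, 0.08 and 0.88 for Manf, 1.62, 0.07 and 0.40 for Sdf2l1 and 0.58, 0.24 and 0.33 for Dnajb11. The list mean differed by 0.64, 0.16 and 0.18. Batch I had the largest of the 3 differences for Calr, Hspa5, Pdia3, Sdf2l1 and Dnajb11, whereas that of Manf was as large in batch K. Batches J and K, with 12 mice, gave 0 called genes when fitted alone in edgeR (1501 at an unadjusted p under 0.05), and batch I alone gave 13, of which 6 were among the 19.

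**Figure D3:**
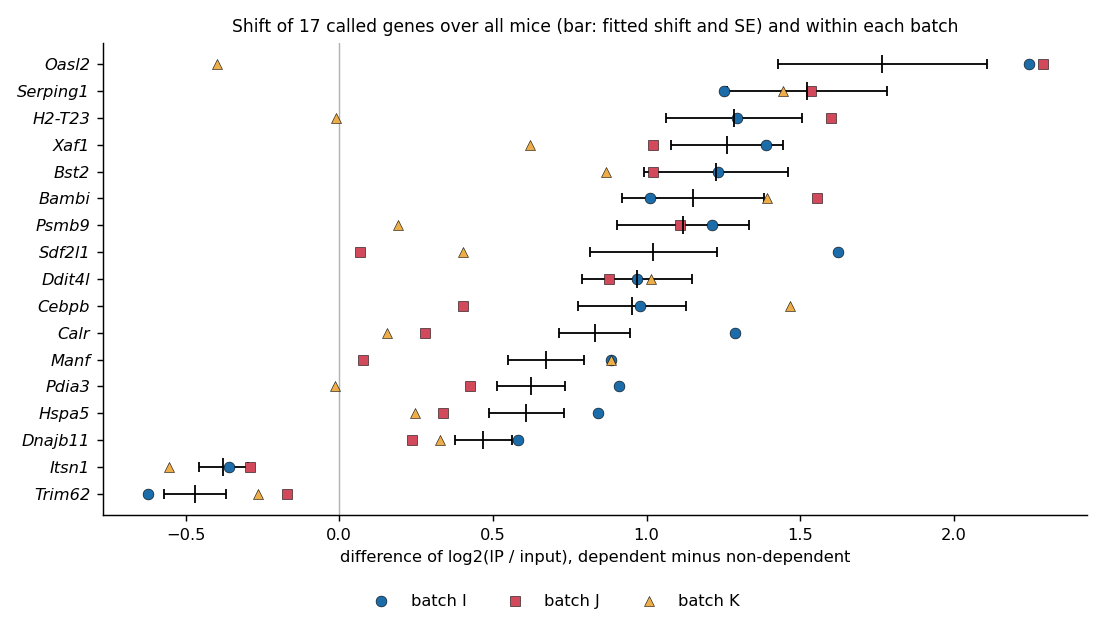
Shift of 17 of the 19 called genes (Ifi44 and C5ar1, which were near 0 counts, are left out). The x axis is the difference of log2(IP / input), dependent minus non-dependent; the black mark is the fitted shift with its SE over 26 mice, and the symbols are the plain differences within batches I, J and K. Ddit4l and Serping1 lie close together in all batches, while Calr runs from 1.29 in batch I to 0.15 in batch K.

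Interferon-response and antigen-processing genes formed the second group, in which the IP moved further than an input that also lay higher. Relative to input, H2-T23 and Psmb9 rose among 17 genes that serve antigen processing and MHC class I, none fell and the median shift was 0.39. Of all genes 0.0922% rose relative to input, 1.11% in IP and 0.0772% in input. In IP 15 of 17 rose (median 1.81) and in input none passed, although the median difference there was 1.48. The 4 mice of high microglia ratio carried much of this size: without them 0 of 17 had a called shift (median 0.22), 7 of 17 rose in IP (median 0.92) and the median difference in input was 0.54. Of 30 type I interferon response genes tested, 4 rose relative to input (Xaf1, Ifi44, Bst2 and Oasl2), none fell and the median shift was 0.47. The list's mean ratio differed by 0.53, 0.58 and -0.05 in batches I, J and K, so the 2 dependent mice of batch K showed no such difference. In IP alone 12 of 27 interferon genes rose (median 1.26), against none of 28 in input (median 0.84). Without the 4 mice Xaf1 alone had a called shift (list median 0.20), and 3 of 27 rose in IP (median 0.54). An alternative chosen after seeing the data took each mouse's mean microglia ratio as a term for the IP. Xaf1 and H2-T23 then stayed called (shifts 1.12 and 0.92). Bst2, Psmb9, Oasl2 and Ifi44 missed the threshold (adjusted p from 0.0833 to 0.168), with shifts of 0.90, 1.06 and 1.499 for Bst2, Psmb9 and Oasl2. With the neuron marker ratio as the term the same 4 missed the threshold (adjusted p from 0.0554 to 0.0844), while the shifts of Bst2, Psmb9 and Oasl2 were 1.19, 1.11 and 1.72, close to those without it. The part of other cells in these shifts was not tested.

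Xaf1 (ENSMUSG00000040483, chr11:72301629-72313733), an interferon-induced inhibitor of apoptosis blockers, ran from 9.61 to 109 CPM (median 27.02) in dependent and from 5.71 to 13.7 CPM (median 8.04) in non-dependent mice in IP. In input it ran from 5.87 to 40.6 CPM (median 15.8) in dependent and from 4.89 to 19.8 CPM (median 10.5) in non-dependent mice. The log2 ratio ran from -0.07 to 1.66 (median 0.87) in dependent and from -1.14 to 0.71 (median -0.19) in non-dependent mice, and 8 of 13 dependent mice were above every non-dependent one. The shift was 1.26 ± 0.18 (2.397-fold, adjusted p = 0.000485), with 2.26 ± 0.40 in IP (adjusted p = 0.00538) and 0.90 ± 0.29 in input (adjusted p = 0.338). Within batches I, J and K the ratio differed by 1.39, 1.02 and 0.62.

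H2-T23 (ENSMUSG00000067212, chr17:36029773-36032855) encodes the non-classical MHC class I molecule Qa-1, which inhibitory receptors of natural killer and T cells read. It was below input in most mice, with a ratio from -1.26 to 0.99 (median -0.20) in dependent and from -1.74 to -0.90 (median -1.35) in non-dependent mice. In IP it ran from 12.6 to 309 CPM (median 28.8) in dependent and from 6.19 to 13.1 CPM (median 10.6) in non-dependent mice, and 10 of 13 dependent ratios lay above the non-dependent range. The shift was 1.29 ± 0.22 (adjusted p = 0.00678), with 2.83 in IP and 1.25 in input. In batches I, J and K the ratio differed by 1.29, 1.60 and -0.01, so the 2 dependent mice of batch K did not stand above the controls of their batch. Without the 4 mice of high microglia ratio the shift was 0.74 (adjusted p = 0.0975). Psmb9, a catalytic subunit of the immunoproteasome, had a ratio from 0.15 to 2.19 (median 1.37) in dependent and from -0.77 to 1.09 (median 0.31) in non-dependent mice and a shift of 1.12 ± 0.21 (adjusted p = 0.0149), with 9 dependent mice above all non-dependent ones. Reads of the closely related H2 genes cannot be told apart with certainty.

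Bst2 (tetherin, which holds budding virus at the cell surface) ran from 5.498 to 218 CPM (median 25.3) in dependent and from 2.604 to 12.6 CPM (median 4.97) in non-dependent mice in IP, a wide spread in dependent mice. In input Bst2 ran from 2.09 to 60.5 CPM (median 10.6) in dependent and from 2.696 to 4.93 CPM (median 4.26) in non-dependent mice. Its shift was 1.23 ± 0.23 (adjusted p = 0.0149), while its difference was 3.36 ± 0.63 in IP and 2.09 ± 0.46 in input. Oasl2, of the oligoadenylate synthetase family that senses viral RNA, had from 2.45 to 122 CPM (median 14.1) in dependent and from 0.0446 to 10.2 CPM (median 2.62) in non-dependent mice in IP and a shift of 1.77 ± 0.34 (adjusted p = 0.0151; without mouse I06 0.052), with batch differences of 2.24, 2.29 and -0.40. Ifi44, an interferon-induced gene, was at 0 counts in the IP of 9 of 13 non-dependent and 3 of 13 dependent mice, where a count of 0 allows up to 0.109 to 0.285 CPM. The highest IP level of Ifi44 was 25.6 CPM in dependent and 1.18 CPM in non-dependent mice, and its fitted shift (adjusted p = 0.0078, without mouse I03 0.0748) depends on so few counts that its size is not given.

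The sequences before Bst2 and H2-T23 are shown because these 2 of the 16 called genes with a promoter held the interferon-stimulated response element core (GAAA and GAAA, 2 bases apart), on either strand. The element stood in 2.98% of the 32841 windows and in 2.57% of the 15578 windows of tested genes. Capitals mark it, and in Bst2 also the gamma-activated sequence TTCNNNGAA, which overlaps the first of 2 overlapping cores. That sequence stood in 7.02% of all windows and in 5.82% of those of tested genes. The windows are chr8:71537473-71537722 and chr17:36032702-36032951, both on the minus strand, from RefSeq (GRCm38.p6).
Bst2: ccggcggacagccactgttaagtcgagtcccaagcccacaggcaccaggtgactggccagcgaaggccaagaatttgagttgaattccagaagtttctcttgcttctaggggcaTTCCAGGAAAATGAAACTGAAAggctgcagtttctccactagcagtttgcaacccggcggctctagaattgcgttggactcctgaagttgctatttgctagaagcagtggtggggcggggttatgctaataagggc
H2-T23: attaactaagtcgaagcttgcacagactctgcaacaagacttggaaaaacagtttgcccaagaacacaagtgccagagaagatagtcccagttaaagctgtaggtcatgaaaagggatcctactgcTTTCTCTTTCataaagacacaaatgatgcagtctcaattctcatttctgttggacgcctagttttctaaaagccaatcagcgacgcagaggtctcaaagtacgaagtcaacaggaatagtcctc
In Bst2 the cores lay 130 to 121 and 124 to 115 bases before the start, and in H2-T23 124 to 115 bases before it. The gene span printed above for H2-T23 is from another annotation with a start further upstream, so its core lies inside that span. The promoter windows of Xaf1, Psmb9, Oasl2 and Ifi44 held neither motif, and the C/EBP-ATF element TGATGNAAN was in none of the 16, against 3.43% of all windows. Absence of the letters in a window of this length says nothing of the factors.

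Many immune genes had large differences in both fractions and no called shift. H2-D1 differed by 2.04 ± 0.38 in IP and 1.48 ± 0.36 in input, with a shift of 0.48 ± 0.12 (adjusted p = 0.113). Psmb8, another immunoproteasome subunit, differed by 2.87 and 1.97, with a shift of 0.82 ± 0.21 (adjusted p = 0.124). The MHC class II chain H2-Ab1 differed by 5.57 in IP and by 4.07 in input, where it also passed the test (adjusted p = 0.0424). None of 9 MHC class II genes had a called shift (median 0.80), against 0.103% of all genes. In IP 5 of 7 rose (1.11% of all genes did) and in input 2 of 7 (0.0772%). Without the 4 mice of high microglia ratio these were 1 of 7 and 0 of 7. H2-K1 (shift 0.09) and the peptide transporter gene Tap2 (0.03), singled out after their values were seen, rose in IP by 1.81 and 0.84 with input differences of 1.72 and 0.85. C4b, complement component 4, rose in both fractions (1.14 in IP, 1.38 in input) and had a shift of -0.22 ± 0.09 (adjusted p = 0.529).

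GTPases induced by interferon, listed with other targets of interferon gamma, had the highest median shift of the lists in the plot of shifts by list, 0.94 over 18 genes, and none passed the test. In IP 8 of 14 rose and in input 1 of 13. Of all genes 1.11% rose in IP and 0.0772% in input, and 0.103% had a called shift. Without the 4 mice the median shift was 0.75 over 16 genes and 3 of 14 rose in IP. The list's mean ratio differed by 0.67, 1.01 and -0.24 in batches I, J and K, opposite in sign in batch K. Gbp3, a guanylate-binding protein, came closest (shift 1.16 ± 0.26, adjusted p = 0.063), and its batch differences were 1.10, 1.49 and -0.48. Irf1, a transcription factor of the interferon gamma response, had a shift of 0.96 ± 0.24 (adjusted p = 0.113).

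**Figure D4:**
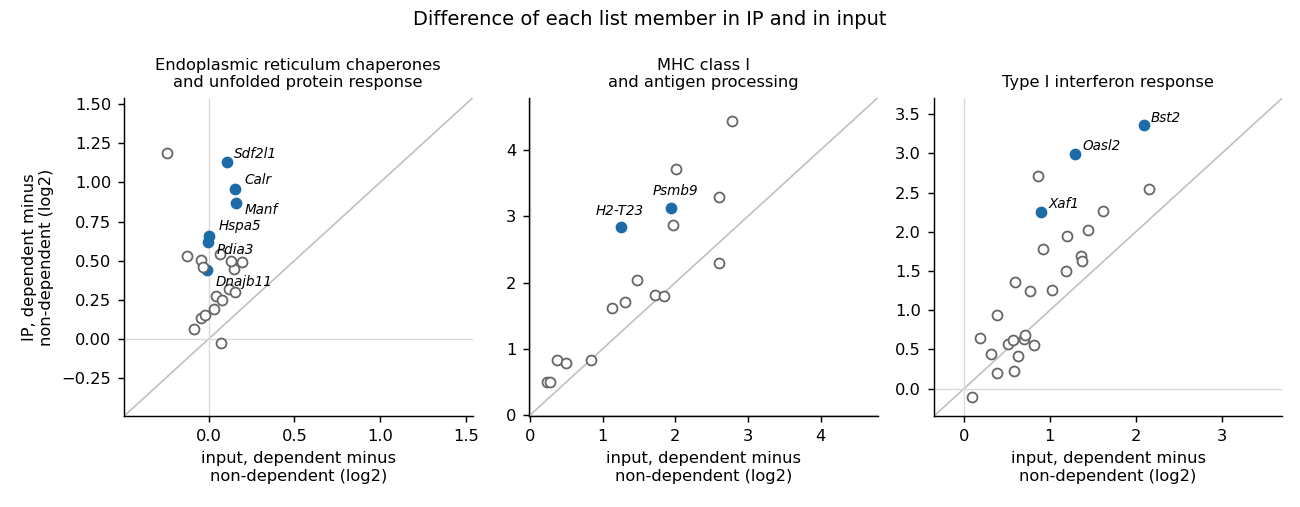
Each point is a gene of 1 of 3 lists that could be tested in both fractions: the x axis is its dependent minus non-dependent difference in input and the y axis that in IP, both log2 from separate fits over 26 libraries. Filled points have a called shift, and the grey line marks equal differences. The ER genes stand near 0 on the input axis (median 0.04), while MHC class I and interferon genes are displaced on both axes.

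The remaining higher genes belong to other families. Cebpb (ENSMUSG00000056501, chr2:167688915-167690418), a transcription factor of inflammatory and metabolic stress genes, ran from 23.7 to 96.8 CPM (median 37.5) in dependent and from 10.8 to 20.2 CPM (median 14.2) in non-dependent mice in IP, ranges that did not overlap. In input Cebpb ran from 8.91 to 21.5 CPM (median 16.4) in dependent and from 7.04 to 14.2 CPM (median 10.8) in non-dependent mice, where the groups overlapped but the gene passed the test (0.61 ± 0.12, adjusted p = 0.0344). In 9 of 13 dependent mice the ratio was above all non-dependent ones, and the shift was 0.95 ± 0.18 (adjusted p = 0.0108), with batch differences of 0.98, 0.40 and 1.47. Of 5 C/EBP family genes tested it was the 1 called.

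Ddit4l (ENSMUSG00000046818, chr3:137621612-137628333), an inhibitor of the growth kinase mTOR, had the most even batch differences, 0.97, 0.88 and 1.01. Its IP level ran from 62.99 to 121 CPM (median 79.8) in dependent and from 45.8 to 93.5 CPM (median 55.1) in non-dependent mice. In input it ran from 12.1 to 37.8 CPM (median 28.9) in dependent and from 14.1 to 91.9 CPM (median 31.7) in non-dependent mice, so the medians lay in opposite order in the 2 fractions. Its shift was 0.97 ± 0.18 (adjusted p = 0.0115), from 0.51 ± 0.11 in IP and -0.54 ± 0.24 in input, the latter not called.

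Serping1 (ENSMUSG00000023224, chr2:84765387-84775444) encodes the C1 inhibitor, which restrains the start of the complement cascade. It ran from 3.895 to 81.8 CPM (median 9.94) in dependent and from 1.44 to 6.67 CPM (median 3.202) in non-dependent mice in IP and from 0.674 to 16.5 CPM (median 3.57) in dependent and from 1.33 to 4.16 CPM (median 2.28) in non-dependent mice in input. The ratio ran from 1.11 to 2.65 (median 1.68) in dependent and from -0.37 to 2.24 (median 0.45) in non-dependent mice, and 5 dependent mice exceeded the highest non-dependent one. Its shift was 1.52 ± 0.26 (adjusted p = 0.00678), with similar batch differences (1.25, 1.53 and 1.44). It was 1.14 (adjusted p = 0.0917) with the microglia term and 0.99 (adjusted p = 0.298) without the 4 mice of high microglia ratio. Of 13 complement genes Serping1 and C5ar1 were called and the median shift was 0.17, against none and -0.03 without those mice. With all mice 0.103% of all genes had a called shift.

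Bambi (ENSMUSG00000024232), a decoy receptor of the TGF-beta and BMP family, ran from 6.59 to 67.2 CPM (median 23.5) in dependent and from 1.47 to 15.2 CPM (median 5.83) in non-dependent mice in IP and from 4.62 to 21.04 CPM (median 9.71) in dependent and from 3.14 to 9.06 CPM (median 6.58) in non-dependent mice in input. Its shift was 1.15 ± 0.23 (adjusted p = 0.0209), with 7 dependent mice above all non-dependent ones, and was 1.31 (adjusted p = 0.0106) with the microglia term and 1.06 (adjusted p = 0.0984) with the neuron term. The call was lost without I03, I04, I05, I09, I15 or I16 (adjusted p up to 0.0706). C5ar1, the receptor of complement fragment C5a and a gene of myeloid cells, was near its limit of detection: it was at 0 counts in the IP of 7 non-dependent and 2 dependent mice and reached 2.68 CPM in dependent mice. Its call (adjusted p = 0.018) was lost in 10 alternative settings. Among these were limma on the ratios (adjusted p = 0.0876), a separate dispersion estimate (0.158) and the microglia term (0.228). It was also lost without batch J (0.0675) or batch K (0.0948).

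The 2 lower genes had small shifts. Itsn1, a scaffold of endocytosis, ran from 54.8 to 87.1 CPM (median 70.6) in dependent and from 72.1 to 93.3 CPM (median 85.98) in non-dependent mice in IP and from 37.4 to 70.1 CPM (median 58.9) in dependent and from 34.8 to 64.6 CPM (median 49.3) in non-dependent mice in input. Its ratio ran from -0.01 to 1.02 (median 0.42) in dependent and from 0.39 to 1.20 (median 0.80) in non-dependent mice, and 6 dependent mice were below all non-dependent ones. The shift was -0.38 ± 0.08 (adjusted p = 0.0464), with batch differences of -0.36, -0.29 and -0.55. Trim62, a ubiquitin ligase, had a ratio from -0.30 to 0.38 (median -0.02) in dependent and from 0.08 to 0.80 (median 0.49) in non-dependent mice, with 10 dependent mice below all non-dependent ones, and a shift of -0.47 ± 0.10 (adjusted p = 0.0464). Trim62 was called in neither fraction alone (-0.12 in IP, 0.31 in input). Both calls sat at the threshold: they were lost without any 1 of 18 mice for Itsn1 (adjusted p up to 0.107) and of 19 for Trim62 (up to 0.114). Gabbr1, a GABA-B receptor subunit, was the next lower gene among those named (shift -0.32 ± 0.07, adjusted p = 0.0713), with -0.30 in IP and 0.01 in input.

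Other stress lists held no called gene. Of all tested genes 0.103% were called, so a count of 0 in lists of this size is near that share. Of 25 oxidative stress response genes, targets of the redox factor Nrf2, 21 had a shift above 0 (median 0.15) and none passed, while 9 rose in IP and none in input. Of all 18444 tested genes 9114 had a shift above 0, and 1.11% of genes rose in IP and 0.0772% in input. The lowest adjusted p in the list belonged to Gclc, the catalytic subunit of glutathione synthesis, with a shift of 0.46 ± 0.11 (adjusted p = 0.0947), an IP difference of 0.44 and an input difference of -0.01. In the same list Mgst1 and Osgin1, singled out after their values were seen, rose in IP by 0.58 and 1.63 with input differences of 0.54 and 1.46. Of 19 integrated stress response genes none was called (median 0.11), and Atf4, its central transcription factor, had a shift of 0.28 (adjusted p = 0.375). The 15 cytosolic heat shock genes (median -0.02), 48 nuclear respiratory chain genes (median -0.01), 78 cytosolic ribosomal protein genes (median 0.01) and 27 constitutive proteasome genes (median 0.09) had none either. Tfrc, the transferrin receptor, had a shift of 0.65 ± 0.15 (adjusted p = 0.0713), with a rise of 0.68 in IP and a difference of 0.06 in input.

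**Figure D5:**
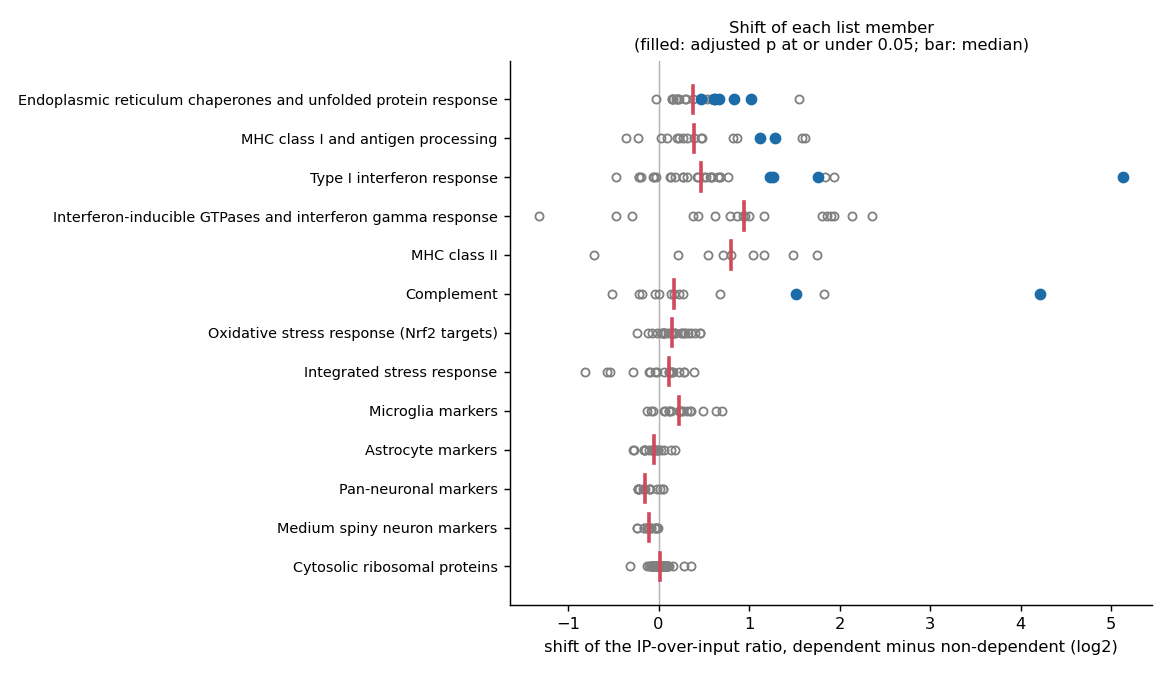
Shift of each tested member (points, log2, x axis) of 13 gene lists (y axis), with the median as a red bar and called genes filled. The ER list has 22 of 23 members above 0, the 16 medium spiny neuron markers all lie below 0, and called genes occur in the ER, MHC class I, interferon and complement lists. Of all 18444 tested genes 9114 lie above 0.

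A few genes were called in input and not in IP, which does not show that their IP level did not differ. Slc2a1, the glucose transporter GLUT1, ran from 36.8 to 73.9 CPM (median 46.3) in dependent and from 25.8 to 47.2 CPM (median 36.1) in non-dependent mice in input, a difference of 0.39 ± 0.08 (adjusted p = 0.0344), against 0.26 ± 0.08 in IP. Ptgds, prostaglandin D synthase, differed by 0.89 ± 0.17 in input (adjusted p = 0.0344) and by 0.68 ± 0.25 in IP, and Tent5a, a poly(A) polymerase, by 0.87 and 0.35. Timmdc1, an assembly factor of respiratory complex I, fell in input (-2.90 ± 0.51, adjusted p = 0.0344), where non-dependent mice spread from 7.305 to 234 CPM and dependent mice from 5.62 to 12.7. None of these 4 had a called shift (adjusted p from 0.303 to 0.907), so a difference between the fractions was not shown for them. With a term for sex, 1 gene remained called in input.

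The called genes were also placed by their usual enrichment. Genes were divided by their mean log2 ratio in 15 naive mice of batches J, K and L, which had no ethanol. Over all genes 0.103% were called. None was called among 1067 genes at 2 or more (median shift -0.05) or among 1586 genes at 1 to 2 (median -0.005), classes so small that this count is near the overall share. The class from 0 to 1 held 13 of the 19 (5634 genes, 0.231% called, median 0.02), that from -1 to 0 held 5 (7292 genes, 0.0686%) and that below -1 held 1, H2-T23 (2865 genes, 0.0349%, median -0.07). In naive mice the mean ratio of Calr was 0.41, of Hspa5 0.19, of Xaf1 -0.22 and of H2-T23 -1.17.

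No gene's shift differed between males and females in edgeR (0 of 18444, smallest adjusted p 0.519, 873 at an unadjusted p under 0.05), and limma on the ratios also called 0 (741 at an unadjusted p under 0.05). Sex differences, male minus female, were -0.16 for Calr, 0.13 for Hspa5, -0.23 for Xaf1 and -0.71 for Psmb9. Batch K held no dependent female.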

How the data were processed

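Whole-number read counts per gene were used as the authors deposited them in 1 table. The tools named in the submitters' processing notes are STAR 2.7.10b, Trimmomatic 0.39 and FastQC 0.11.9, with the build GRCm38. The counter, annotation and strand setting are not given in the sources used here, so reads of overlapping, antisense and near-identical genes cannot be told apart. Library preparation was Takara SMART-Seq PLUS, per the labels' protocols, without molecular identifiers among the stated steps. Of 55471 features 55144 matched a symbol, and the other 327 held 0.0197% of the counts.

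Libraries were paired by mouse code. Libraries of 1 mouse deviated together from their group means (correlation over 5029 genes 0.164 to 0.677, median 0.453, over 0.1 in 26 of 26 mice). In 22 of the 26 mice the best-correlated library of the other fraction was the mouse's own, and in the rest it was another mouse's. No 2 libraries were identical. The shift was the treatment by fraction term of edgeR 4.0.16 (quasi-likelihood F test, R 4.3.3, TMM over 52 libraries, filterByExpr with a minimum count of 10 and a minimum total of 15, robust) with the mouse as block and batch by fraction terms, which leaves 22 residual degrees of freedom, adjusted by Benjamini-Hochberg over all genes tested. IP and input libraries were also fitted alone with treatment and batch. Per-mouse ratios used log2 CPM with a prior count of 2. Marker ratios were tested by 100000 permutations within batches, and exactly within batch I and within batches J and K. DESeq2 1.42.0 and limma 3.58.1 were alternatives. The fit was also run on simulated counts with known changes, whose outcome is not given here. That simulation held no batch effect and no mice that stand apart, so it cannot show how the fit handles these. A limit of 3 counts stands for a count of 0, which covers counting error only.

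Named genes were up to 12 higher and 12 lower genes by adjusted p with at least 1 CPM on average and an established symbol, up to 4 members of each list, up to 6 genes called in input and anchor genes (such as Aldh1l1 and Rpl10a). Hspa5, Bambi and Sdf2l1, which are called but fall outside this rule, and Derl3, Pdia6, Hyou1, H2-K1, Tap2, Mgst1 and Osgin1 were named after their values were seen. The 45 lists (808 genes, 807 matched), the comparison and the tests were chosen with earlier results of these data known. Promoter sequences are from RefSeq (GRCm38.p6), and 16 of the 19 called genes had one.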

Additional observations from a re-analysis of the deposited data

How the results depend on the processing

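The 19 called shifts, of which 17 were higher, were sensitive to the model and to the batches. DESeq2 called 50 (30 higher, 20 lower), of which 16 were among the 19, and limma on the per-mouse ratio called 3 (Calr, Xaf1 and Serping1). A separate dispersion estimate gave 12, all among the 19. Without the mouse as replicate block the edgeR count was 0 (857 genes had an unadjusted p under 0.05). Batches J and K alone gave 0 (1501 at an unadjusted p under 0.05), leaving out batch J gave 9 (7 shared) and leaving out batch K 29 (15 shared). With a microglia marker term, chosen after seeing the data, 10 were called (9 shared), and with a neuron marker term, chosen likewise, 12 (11 shared). Without the 4 dependent mice whose microglia ratio lay above every non-dependent mouse, chosen likewise, 7 were called (6 shared), with 89 in IP (83 shared) and 0 in input (1000 at an unadjusted p under 0.05). Under each of these the cause was not tested. The count stayed within 1.5 times of 19 with DESeq2 size factors (20), separate scaling of IP and input (19), no filter (17) and no batch term (15). It also did with a sex term (18), an astrocyte term (18) and mitochondrial transcripts left out (19). Batch I alone gave 13, a count also within 1.5 times, but only 6 of these were among the 19. Leaving out 1 mouse gave 13 (without I06) to 28 (without K21) calls. Without a batch term IP alone gave 96 calls in place of 239 (92 shared). Input alone gave 2 without a filter and 1 with a sex term in place of 17. The neuron marker difference was -0.0034 in batch I alone. Over 189 named genes and their alternatives, 3771 values, 0 called shifts changed sign, 137 lost a call and 34 gained one. Another 85 values, of shifts not called, changed sign. The fits without 1 mouse entered this tally only as the lowest and highest shift of each gene, so not every call lost there is counted.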

Other observations

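None of the glucocorticoid receptor and target genes or immediate early genes had a called shift, against 0.103% of all genes. Of 16 glucocorticoid genes 4 rose in IP (Dusp1, Cdkn1a, Nfkbia and Tsc22d3), where 1.11% of all genes did, and none rose in input, where 0.0772% did. Their median difference was 0.36 in IP and 0.32 in input, with a median shift of 0.03. Dusp1, a phosphatase of stress kinases, differed by 0.93 in IP (adjusted p = 0.00035) and 0.34 in input (adjusted p = 0.742), with a shift of 0.59 (adjusted p = 0.105). Tsc22d3, the glucocorticoid-induced leucine zipper, differed by 0.62 in IP and 0.32 in input, with a shift of 0.23 (adjusted p = 0.592). Of 18 immediate early genes Dusp1 and Fos rose in IP. The median difference of the list was 0.41 in IP and 0.36 in input, and the median shift was -0.05. Fos, the activity-induced transcription factor, differed by 1.5 in IP (adjusted p = 0.0014) and 0.99 in input (adjusted p = 0.381), with a shift of 0.58 (adjusted p = 0.405). Both lists were described after their values were seen.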
